A study of Mus musculus with 45 samples.

Results

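The tuft cell is a chemosensory cell of the intestinal epithelium, and 10 genes that mark its shape and its surface were followed across 45 libraries of sorted small intestinal tuft cells. The genes were Dclk1, Avil, Krt18, Cd24a, Siglecf, Sh2d6, Sh2d7, Bmx, Kctd12 and Lrmp, chosen by name as structural, surface and adaptor markers of the tuft cell. They are 10 of 47729 genes in the tables, and all 10 passed the filter on low counts that left 14020 genes for testing.

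Each library came from 1 male C57BL/6J mouse, young at arrival and housed at thermoneutrality, with no transgene and no deletion in any group. The mice ate a low-fat reference diet (RFD, 10% fat) or a high fat diet (HFD, 60% fat). One set of libraries was from 9 weeks of feeding, with 11 RFD and 11 HFD mice, and the other from 22 weeks, with 11 RFD and 12 HFD mice. The labels give 9 weeks for both sets and the feeding time of the second set was taken from the methods of the study, so set and feeding time cannot be told apart. The cells were live EpCAM+ Siglec-F+ cells, sorted by flow cytometry. The study's methods write their gate as CD45+ and also state that CD45 served to exclude cells carrying it. The CD45 status of the gate is therefore not settled. RNA was amplified with the Smart-seq2 protocol, which makes full-length cDNA from small amounts of RNA. Siglec-F was part of the gate, so the presence of Siglecf is no finding.

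Library totals ran from 189340 to 4193097 counts in the RFD and from 409023 to 3600000 in the HFD group at 9 weeks, and from 829184 to 3476758 and 661598 to 4690213 at 22 weeks. Between total counts and the members, Spearman's rho was 0.05 to 0.38 at 9 weeks (n = 22) and 0.09 to 0.33 at 22 weeks (n = 23), none passing (permutation test, smallest adjusted p = 0.18 over 160 relations). Pearson's r was 0.16 to 0.49 at 9 weeks and passed for Lrmp, Cd24a and Sh2d6 (permutation test, adjusted p = 0.037, 0.046 and 0.053), but without the 2 libraries farthest from the median it was 0.04 to 0.29 over the members. At 22 weeks r was 0.04 to 0.20, none passing. By their numbers, the mice form 3 series whose meaning is not stated in the labels, and values within each series are given below without RFD mouse 84 at 9 weeks and HFD mouse 65 at 22 weeks, which belong to no series. Sorted cells were measured in bulk, so fewer tuft cells in a sort and less RNA per tuft cell cannot be told apart.

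Tuft cells sense the contents of the gut lumen through a tuft of stiff microvilli, and they answer parasites and microbial metabolites by releasing the cytokine interleukin 25. The tuft is held by actin bundles and by a dense keratin and microtubule skeleton that reaches down towards the nucleus. Intracellularly the cells use a taste-like cascade in which receptors release calcium through inositol trisphosphate receptors and open the channel Trpm5, and the transcription factor Pou2f3 is required for the lineage. Pou2f3 belongs to the octamer-binding POU family.

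The stretches of 250 bases before the annotated starts are shown for the 3 members in which a motif search or an alternative start is of interest. They are RefSeq sequences of the build GRCm38.p6, written 5′ to 3′ on the gene's strand. Avil and Kctd12 are shown because they hold the octamer or its first 7 letters on either strand, marked in capitals, and Dclk1 because it has 2 annotated starts, a distal and an internal one, whose reads are summed in the gene's count. The regions are chr10:127000459-127000708 (plus strand) for Avil, chr14:102982638-102982887 (minus strand) for Kctd12, chr3:55242114-55242363 (plus strand) for the distal Dclk1 start and chr3:55461478-55461727 (plus strand) for the internal one.
Avil: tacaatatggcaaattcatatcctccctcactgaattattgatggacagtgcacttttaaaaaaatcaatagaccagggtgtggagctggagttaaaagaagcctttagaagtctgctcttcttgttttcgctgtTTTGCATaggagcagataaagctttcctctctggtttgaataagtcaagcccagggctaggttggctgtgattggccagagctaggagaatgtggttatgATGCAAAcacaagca
Kctd12: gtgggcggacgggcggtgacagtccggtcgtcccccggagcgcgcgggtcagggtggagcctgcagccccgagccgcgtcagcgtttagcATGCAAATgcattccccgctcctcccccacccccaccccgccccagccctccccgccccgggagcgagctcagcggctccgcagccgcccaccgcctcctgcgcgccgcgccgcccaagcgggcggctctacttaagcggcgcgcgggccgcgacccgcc
Dclk1, distal start: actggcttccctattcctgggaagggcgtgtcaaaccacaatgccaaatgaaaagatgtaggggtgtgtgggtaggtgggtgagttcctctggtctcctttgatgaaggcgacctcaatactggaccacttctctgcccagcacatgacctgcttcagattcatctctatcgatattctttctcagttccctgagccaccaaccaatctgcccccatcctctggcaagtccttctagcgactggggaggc
Dclk1, internal start: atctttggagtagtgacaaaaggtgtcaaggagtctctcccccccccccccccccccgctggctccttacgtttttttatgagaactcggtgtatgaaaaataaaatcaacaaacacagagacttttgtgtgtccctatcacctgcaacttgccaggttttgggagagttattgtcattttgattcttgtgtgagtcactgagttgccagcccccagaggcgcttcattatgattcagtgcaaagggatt
The octamer ATGCAAAT was searched on both strands in the 9 promoters of the 8 members that the table holds, Cd24a and Lrmp having none there. It was found in Kctd12, where its first base lies 160 bases before the start, and 1.6% of 32851 mouse promoters of this length hold it. The shorter ATGCAAA, which is contained in the octamer, is in 4.12% of all promoters. Beside the octamer of Kctd12 it was found at 2 places in Avil, on the gene's strand with the first base 15 bases before the start, and on the opposite strand, where it reads TTTGCAT and begins 115 bases before the start. Neither string was found in the Dclk1 stretches or in those of the remaining members.

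All 10 members were read in every library, and on the scale of TPM, which accounts for length, Krt18 stood far above the rest. The median TPM over the 45 libraries was 12975 for Krt18, 2230 for Sh2d6, 1343 for Cd24a, 1267 for Lrmp, 803 for Dclk1, 538 for Avil, 428 for Siglecf, 219 for Sh2d7, 123 for Bmx and 38.0 for Kctd12. Krt18 was above Sh2d6 in all 45 libraries and Bmx above Kctd12 in all 45. The neighbouring pairs Cd24a and Lrmp (Cd24a higher in 33 of 45 libraries), Avil and Siglecf (34 of 45), and Sh2d6 and Cd24a (36 of 45) changed places in more than 8 libraries each. The smallest number of reads behind a member in a single library was 5, for Bmx.

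The members varied widely between mice of the same diet. Between the lowest and the highest of the 45 libraries, the level in scaled read counts (CPM, scaled to comparable totals by the TMM method of edgeR) differed between 17.5-fold for Cd24a and 106-fold for Bmx, whose lowest library rests on 5 reads. With group means removed, the SD of log2 CPM at 9 weeks ran from 0.88 for Cd24a to 1.56 for Lrmp, and at 22 weeks from 0.85 for Krt18 to 1.10 for Siglecf. In part the same libraries stood at the ends. At 9 weeks, HFD mouse 80 was lowest of its group for 9 of the 10 members and HFD mouse 64 highest for all 10. At 22 weeks, RFD mouse 1 and HFD mouse 6 were the lowest of their groups and HFD mouse 50 the highest of its group for all 10. The lowest and highest places of the RFD group at 9 weeks were each spread over 3 mice, and the highest of the RFD group at 22 weeks over 4.

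**Figure D1:**
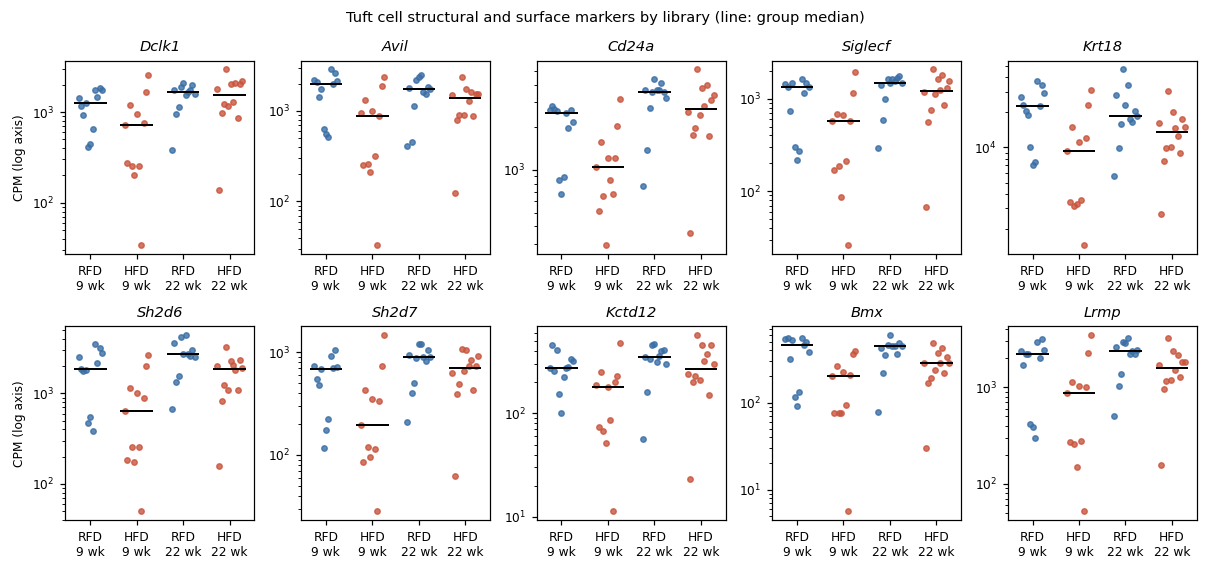
Level of each member in each library, in CPM on a log axis, with 1 point per mouse and a line at the group median, for RFD and HFD at 9 and 22 weeks. HFD points at 9 weeks reach lower than the RFD points for every member, and the groups overlap in every panel.

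At 9 weeks the median level of every member was lower on HFD than on RFD, but no member passed the test across all genes. The question was whether the diet changed these markers, and the fitted log2 fold changes ran from -1.17 for Sh2d6 to -0.55 for Dclk1. At an adjusted p under 0.1 (quasi-likelihood test of edgeR, Benjamini-Hochberg adjusted) 0 of 10 members were called, where 3.32% of all 14020 genes were. At an unadjusted p under 0.05 there were 4 of 10 members (Krt18, Bmx, Cd24a and Sh2d6), beside 18% of all genes. All 10 log2 fold changes were below 0, beside 52.7% of all genes, and the median was -0.87 for the members and -0.05 for all genes. With the other tools run on the same libraries, DESeq2 called 3 members lower (Krt18, adjusted p = 0.0757, Bmx, adjusted p = 0.0722, and Cd24a, adjusted p = 0.0948), beside 18.5% of the 8311 genes to which it gave an adjusted p. A rank-sum test after SAM-seq called Bmx (adjusted p = 0.092), beside 10.7% of all genes, and limma on log2(TPM + 1) called no member. With the mean of the enterocyte markers as a covariate edgeR called Krt18 (adjusted p = 0.056), Cd24a (adjusted p = 0.0632) and Sh2d6 (adjusted p = 0.0776), beside 10.2% of all genes, and with no filter on low counts Cd24a (adjusted p = 0.0699), beside 4.16% of 36145 genes. Since the members move together between mice, the 10 values are far from 10 separate observations.

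Krt18 (chr15:102028180-102032027, plus strand) encodes the type I keratin that pairs with keratin 8 in the filaments of simple epithelia. At 9 weeks its level was 7115, 22523 and 36851 CPM (lowest, median and highest of 11) on RFD and 1446, 9224 and 31001 CPM (of 11) on HFD. Of the HFD mice, 9 of 11 lay below the RFD median and 5 below every RFD mouse, and the groups overlapped. The fitted log2 fold change was -1.01 (SE 0.42, edgeR, p = 0.0232, adjusted p = 0.200). A permutation of the diet labels on mean log2 CPM gave a difference of -1.40 (two-sided permutation test, unadjusted p = 0.011). This was the smallest such p of the 10 members at 9 weeks. The largest was 0.0577, for Dclk1 (same permutation test, unadjusted). At 22 weeks the level was 5729, 18409 and 46559 CPM on RFD and 2676, 13489 and 30684 CPM (of 12) on HFD. Here 10 of 12 HFD mice lay below the RFD median and 1 below every RFD mouse. The log2 fold change was -0.69 (SE 0.30, edgeR, p = 0.0296, adjusted p = 0.434). The permutation of the diet labels gave a difference of -0.65 there (two-sided permutation test, unadjusted p = 0.0831).

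Avil (chr10:127000709-127020994, plus strand) encodes advillin, a villin-family protein that bundles actin in the tuft. Its level at 9 weeks was 513, 1975 and 2863 CPM on RFD and 32.7, 869 and 2383 CPM on HFD, with 10 of 11 HFD mice below the RFD median. Its log2 fold change was -0.97 (SE 0.48, edgeR, adjusted p = 0.293). At 22 weeks it was 413, 1734 and 2463 CPM on RFD and 124, 1381 and 2365 CPM on HFD, and 11 of 12 HFD mice lay below the RFD median. The groups overlapped at both times and the log2 fold change at 22 weeks was -0.39 (SE 0.31, edgeR, adjusted p = 0.722).

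Dclk1 (chr3:55242364-55539068, plus strand), a doublecortin-like kinase that binds microtubules, is the marker most often used to find tuft cells. At 9 weeks its level was 411, 1245 and 1843 CPM on RFD and 33.8, 715 and 2575 CPM on HFD. The HFD group held both the lowest and the highest mouse, and 9 of 11 were below the RFD median. At 22 weeks the level was 380, 1674 and 2094 CPM on RFD and 138, 1530 and 2955 CPM on HFD, with 6 of 12 HFD mice below the RFD median. Its log2 fold change was -0.55 (SE 0.47, edgeR, adjusted p = 0.567) at 9 weeks. At 22 weeks it was 0.00 in counts (95% interval -0.60 to 0.61, edgeR, adjusted p = 0.999) and -0.39 on the log2(TPM + 1) scale (limma, adjusted p = 0.807), so no direction can be given at 22 weeks.

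Among the surface markers, Cd24a (chr10:43578284-43584265, plus strand) encodes a small, heavily glycosylated protein on a lipid anchor that is also found on other crypt cells. At 9 weeks its level was 674, 2532 and 2851 CPM on RFD and 293, 1050 and 3192 CPM on HFD. Of the HFD mice, 10 of 11 were below the RFD median and 3 below every RFD mouse. For Cd24a the log2 fold change was -0.75 (SE 0.33, edgeR, p = 0.0295, adjusted p = 0.222). At 22 weeks the level was 776, 3560 and 4401 CPM on RFD and 361, 2712 and 5137 CPM on HFD, with 9 of 12 HFD mice below the RFD median and a log2 fold change of -0.23 (SE 0.28, edgeR, adjusted p = 0.832). HFD mouse 80 at 9 weeks, the lowest for all members but Cd24a, held 680 CPM of Cd24a beside 33.8 CPM of Dclk1.

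Siglecf (chr7:43351341-43359531, plus strand) encodes the sialic acid-binding lectin used for the sort, which eosinophils also carry. At 9 weeks it was at 217, 1328 and 1618 CPM on RFD and 25.9, 568 and 1962 CPM on HFD, with 10 of 11 HFD mice below the RFD median. The log2 fold change was -0.84 (SE 0.52, edgeR, adjusted p = 0.411), and the 22-week value was -0.20 (SE 0.32, edgeR, adjusted p = 0.885). The other proteins stained for the sort gave a mixed picture in RNA. Epcam, the epithelial adhesion molecule, had a 9-week median of 960 CPM on RFD and 1045 on HFD, and Ptprc, which encodes CD45, one of 164 and 85.1 CPM, with neither called by edgeR (unadjusted p = 0.301 and 0.0661). Eosinophil markers summed to at most 38.9 CPM in any library.

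The remaining 5 members act inside the cell. Sh2d6 (chr6:72513641-72521707, minus strand) and Sh2d7 (chr9:54538984-54545020, plus strand) carry an SH2 domain, the module that binds phosphorylated tyrosine. At 9 weeks Sh2d6 was at 381, 1856 and 3513 CPM on RFD and 49.6, 634 and 2648 CPM on HFD. In 9 of 11 HFD mice it was below the RFD median and in 5 below every RFD mouse. The log2 fold change of -1.17 (SE 0.53, edgeR, p = 0.0377, adjusted p = 0.252) was the lowest of the 10. At 22 weeks Sh2d6 was at 675, 2735 and 4425 CPM on RFD and 158, 1873 and 3274 CPM on HFD. Here 11 of 12 HFD mice were below the RFD median, and the log2 fold change was -0.72 (SE 0.32, edgeR, p = 0.0301, adjusted p = 0.436). Sh2d7 had a 9-week median of 690 CPM on RFD and 197 CPM on HFD (log2 fold change -0.68, SE 0.51) and a 22-week median of 889 and 697 CPM (-0.34, SE 0.30). It was called at neither time.

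Bmx (chrX:164192842-164258193, minus strand) encodes a tyrosine kinase of the Tec family. At 9 weeks it was at 92.6, 455 and 553 CPM on RFD and 5.64, 201 and 391 CPM on HFD, and all 11 HFD mice lay below the RFD median. This gave a log2 fold change of -1.05 (SE 0.44, edgeR, p = 0.0238, adjusted p = 0.201). At 22 weeks the level was 78.8, 445 and 596 CPM on RFD and 30.2, 283 and 485 CPM on HFD, with 11 of 12 HFD mice below the RFD median and a log2 fold change of -0.55 (SE 0.29, edgeR, adjusted p = 0.518). The groups overlapped at both times.

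Kctd12 (chr14:102976581-102982637, minus strand) is an auxiliary subunit of the GABA B receptor. Its 9-week medians were 277 CPM on RFD and 182 CPM on HFD, and its 22-week medians 354 and 270 CPM. Lrmp (chr6:145115653-145174934, plus strand), a protein of the endoplasmic reticulum that associates with inositol trisphosphate receptors, had medians of 2188 and 870 CPM at 9 weeks and of 2380 and 1599 CPM at 22 weeks. Their log2 fold changes at 9 weeks were -0.74 (SE 0.38) and -0.89 (SE 0.56), with edgeR adjusted p = 0.303 and 0.413. At 22 weeks they were -0.19 (SE 0.32) and -0.47 (SE 0.31), with adjusted p = 0.892 and 0.626.

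At 22 weeks 0 of 10 members were called by edgeR, beside 0.792% of all genes, and DESeq2, the rank-sum test and limma on log2(TPM + 1) called none either. Krt18 and Sh2d6 had an unadjusted p under 0.05 (2 of 10 members, beside 10.3% of all genes). The log2 fold change was below 0 for 9 of 10 members, beside 52.1% of all genes, with a median of -0.36 for the members and -0.03 for all genes.

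**Figure D2:**
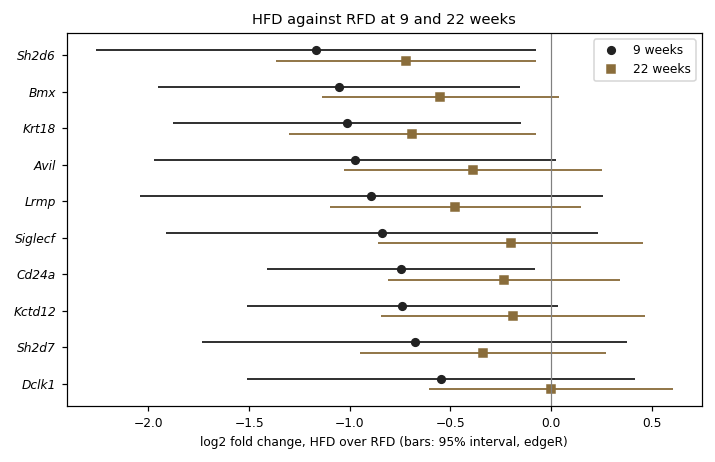
Log2 fold change of HFD over RFD for each member at 9 weeks (circles) and 22 weeks (squares), with 95% intervals from edgeR. Sh2d6 lies lowest and Dclk1 highest at both times, and the intervals of the 2 times overlap for every member.

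The diet differences at 9 and 22 weeks did not differ from each other beyond their error. The 22-week value minus the 9-week value was above 0 for all 10 members, from 0.39 for Krt18 to 0.69 for Siglecf on the log2 scale, with SEs of 0.45 to 0.66. No member was called in this interaction (edgeR, unadjusted p from 0.211 to 0.524, smallest adjusted p over the members 0.99994), where 0% of 14020 genes were called and 3.22% had an unadjusted p under 0.05. DESeq2 and limma on log2(TPM + 1) called no member either.

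Between the 2 sets on the same diet, Cd24a was the 1 member called. On HFD it was higher at 22 than at 9 weeks by a log2 fold change of 1.19 (SE 0.32, edgeR, adjusted p = 0.0238), with 5.78% of all genes called in that comparison and 3.47% called higher. The median was 2712 CPM at 22 weeks and 1050 CPM at 9 weeks. On RFD the same contrast of Cd24a was 0.62 (SE 0.32, edgeR, adjusted p = 0.513), and no member was called, beside 1.46% of all genes. The 9-week libraries enter both the diet and the set contrasts, so these values are not separate from the diet differences above.

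Within the number series the members were lower on HFD in each of the 3 series at 9 weeks, but by very different amounts. The differences in mean log2 CPM were -2.23 to -1.23 in series a (mice numbered 1 to 8, 3 RFD and 4 HFD), -1.43 to -0.24 in series b (multiples of 10, 3 and 4) and -0.77 to -0.11 in series c (21 to 64, 4 and 3). At 22 weeks they were -0.99 to -0.32 in series a (4 and 4), -0.68 to 0.12 in series b (3 and 3) and -0.65 to -0.05 in series c (4 and 4). In series b at 22 weeks 7 of 10 members were lower on HFD, and all 10 were in the other two.

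Markers of Paneth cells, the antimicrobial cells of the crypt base, moved the other way from the members. The 7 Paneth markers made up a median of 0.244% of reads on RFD and 2.82% on HFD at 9 weeks, with a highest value of 10.1% and 32.4%, and 0.128% and 1.22% at 22 weeks, with a highest value of 4.80% and 13.2%. All 7 were detected in each group, all 7 had a log2 fold change above 0 at both times (median 2.35 and 1.33), and none was called by edgeR, with 1 and 0 at an unadjusted p under 0.05. DESeq2 called Ang4 and Lyz1 higher at 9 weeks, beside 18.5% of the genes to which it gave an adjusted p. Summed, they ranged from 57.7 to 112010 CPM on RFD and from 117 to 600680 CPM on HFD at 9 weeks, and from 77.7 to 38662 and 27.3 to 130430 CPM at 22 weeks. The 10 members together made up a median of 3.26% and 1.67% of reads at 9 weeks and 3.49% and 2.97% at 22 weeks.

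In the 5 libraries with over 10% of reads from Paneth markers (1 RFD and 3 HFD at 9 weeks, 1 HFD at 22 weeks), the members made up 0.128% to 1.44% of reads, beside 0.337% to 5.57% in the other 40. HFD mouse 80 at 9 weeks, the lowest for 9 members, was the library with 32.4% Paneth reads. Each member's log2 CPM at 9 weeks was negatively correlated with the mean of the Paneth markers over the 22 libraries, with diet group means removed (Spearman's rho -0.71 to -0.66, Pearson's r -0.75 to -0.67, permutation test, adjusted p 0.0013 to 0.0045 over 160 relations, 10 of 10 members passing). Without the 2 libraries farthest from the median, r was -0.70 to -0.56. At 22 weeks rho was -0.47 to -0.27 (n = 23, r -0.42 to -0.29, 1 of 10 passing).

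With the Paneth mean as a covariate, the diet difference at 9 weeks ran from -0.18 for Dclk1 to -0.69 for Sh2d6, and it was smaller than without the covariate for all 10 members. With the libraries over 10% Paneth reads left out, it ran from -0.27 to -0.90. At 9 weeks these were 1 RFD and 3 HFD libraries, all among the lowest of their group in member reads. Leaving out low libraries mostly from HFD makes the difference smaller by itself, so this fit cannot show what part the Paneth reads have. No member was called in either fit. The genes called among all 14020 fell from 466 to 17 and to 141.

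**Figure D3:**
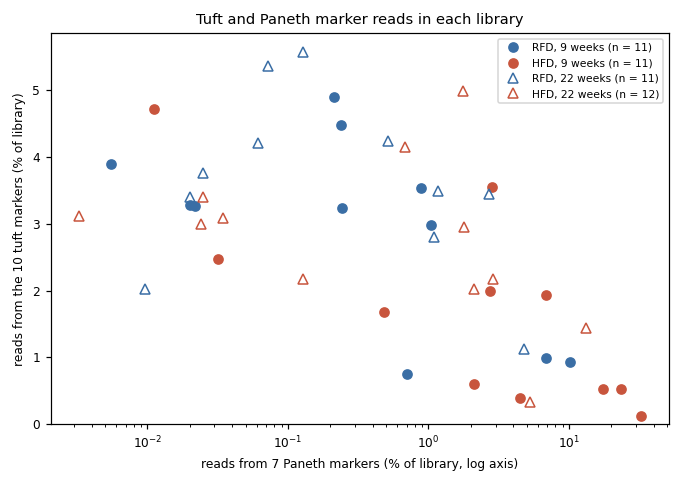
Share of reads from the 10 members against the share from 7 Paneth markers in each library at 9 and 22 weeks, coloured by diet. Both are in percent, with the Paneth share on a log axis and the member share on a linear axis. The 4 libraries over 10% Paneth reads at 9 weeks, 3 of them from HFD mice, hold 0.128% to 0.932% of member reads.

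Markers of stem and cycling cells also ran against the members, with rho from -0.78 to -0.71 at 9 weeks (10 of 10 passing) and from -0.63 to -0.39 at 22 weeks (8 of 10). Among these 6 genes, Olfm4 and Smoc2 were higher on HFD at 9 weeks (log2 fold changes 2.05 and 1.71, edgeR adjusted p = 0.0848 and 0.0662). Ptprc, which tuft cells express, followed the members (rho 0.80 to 0.94 at 9 weeks, 0.64 to 0.83 at 22 weeks, 10 of 10 passing each). Epcam, the enterocyte markers and the T cell markers did not pass with any member at either time. Of 12 enterocyte markers edgeR called Apoc3 lower at 9 weeks (-1.56, adjusted p = 0.0151). At 22 weeks it called Mttp higher (1.04, adjusted p = 0.0614) and Slc5a1 lower (-1.36, adjusted p = 0.0233). Of 7 tested T cell, 7 goblet, 4 macrophage, 2 M cell and 1 eosinophil markers it called none at either time. The 4 macrophage markers were all above 0 at 22 weeks (median log2 fold change 5.47, 3 at an unadjusted edgeR p under 0.05). Their summed level there reached 1266 CPM on HFD and 9.83 CPM on RFD, with medians of 1.74 and 2.30 CPM. At 9 weeks 3 of the 4 were below 0, and the sum reached 391 CPM on HFD and 421 CPM on RFD. At 9 weeks the goblet marker Spink4 and the M cell marker Ccl9 were called higher by DESeq2 and by the rank-sum test. The rank-sum test also called the goblet markers Agr2 and Tff3. DESeq2 called 18.5% of the genes to which it gave an adjusted p there, and the rank-sum test 10.7% of all genes. Of 9 enteroendocrine markers, which mark the hormone cells of the gut, edgeR called Nts, Cck and Gcg lower at 22 weeks (adjusted p = 0.000788, 0.00620 and 0.0279) and none at 9 weeks. At 22 weeks all 9 had a log2 fold change below 0, with a median of -2.96, and their summed level ran from 126 to 1056 CPM on RFD and from 72.7 to 316 CPM on HFD. The part that these measures have in the diet differences of the members was not tested.

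The 10 members rose and fell together from mouse to mouse. Over the 22 libraries at 9 weeks, with diet group means removed, Spearman's rho of the 45 pairs ran from 0.79 (Dclk1 and Cd24a) to 0.97 (Sh2d6 and Lrmp), with a median of 0.93. Pearson's r ran from 0.75 to 0.99, and stayed at 0.73 or above without the 2 libraries farthest from the median. Over the 23 libraries at 22 weeks rho ran from 0.75 (Siglecf and Krt18) to 0.98 (Krt18 and Sh2d6), with a median of 0.85, and r from 0.88 to 0.98, at least 0.75 without 2 libraries. All 90 values passed (permutation test, adjusted p from 1.3e-05, the smallest the permutations can give, to 0.0001). Every pair shares the library's sort, depth and scaling. With the mean of 29 other tuft cell genes, rho ran from 0.83 to 0.99 at 9 weeks and from 0.81 to 0.96 at 22 weeks (permutation test, 10 of 10 passing each). Over the 45 libraries a member's median rho with all 14020 genes was between -0.06 and 0.01, and the 99th percentile between 0.77 and 0.88.

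Within series the correlations were lower in part. The median rho was 0.93, 0.75 and 0.89 in series a, b and c at 9 weeks and 0.98, 0.60 and 0.64 at 22 weeks, with a lowest single value of 0.43 and 0.19. Each series holds at most 8 mice. A first principal component took up 95.3% of the variance of the 10 members at 9 weeks and 95.9% at 22 weeks. Cd24a followed the others least at 9 weeks (median rho 0.82 with the other 9) and Sh2d6 most (0.96), while at 22 weeks Sh2d6 was at 0.81, Krt18 at 0.82 and Avil at 0.91.

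**Figure D4:**
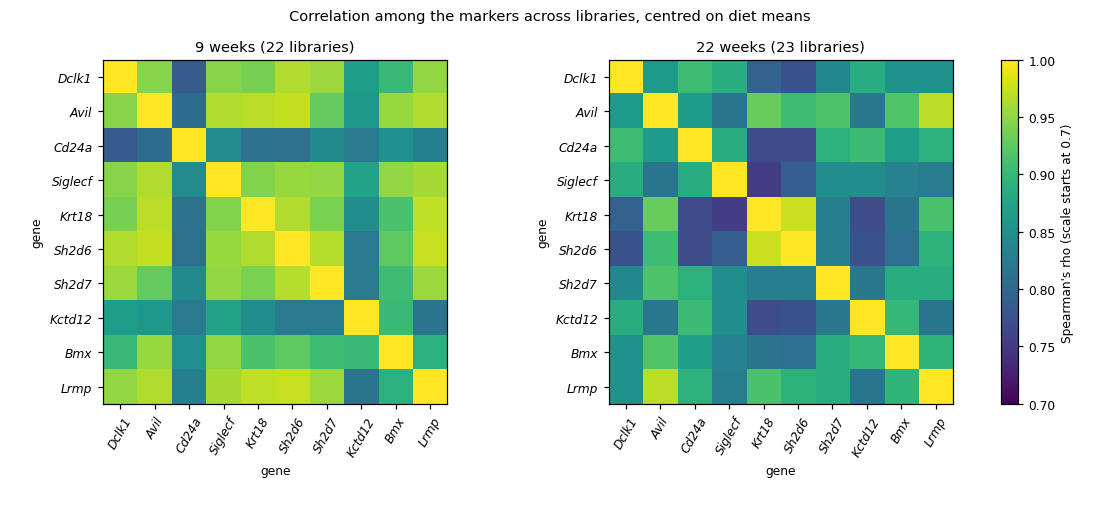
Spearman's rho between each pair of members with diet group means removed, over 22 libraries at 9 weeks and 23 at 22 weeks. Values run from 0.79 to 0.97 at 9 weeks, with Cd24a the darkest row (lowest rho). At 22 weeks they run from 0.75 to 0.98, and Krt18 and Sh2d6 are closest to each other.

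The genes most like the mean of the 10 members were looked for among all 14020, by Spearman's rho over the 45 libraries with group means removed. Among the nearest were Reep5 (0.97), Rac2 (0.97), Tmem176b (0.97), Ptgs1 (0.97), Vav1 (0.96), Cd300lf (0.96), Ccdc28b (0.96), Ethe1 (0.96) and Cdkn1a (0.96). Ptgs1 is the prostaglandin synthase COX-1, and Vav1 and Rac2 are an exchange factor and a small GTPase. The 5 nearest to Dclk1 were Il17rb (0.95), the interleukin 25 receptor subunit, Strip2 (0.93), Fyb (0.93), Dmxl2 (0.93) and Avil (0.93). Chosen after their values were seen, the nearest genes of 3 further members can be added. Krt18 was closest to Sh2d6 (0.98) and Espn (0.98), which encodes the actin-bundling protein espin. Sh2d6 was closest to Matk (0.99), a kinase that acts on Src-family kinases, and Bmx to Ptgs1 (0.95). The 50 nearest genes of each member held between 3 (Krt18 and Sh2d6) and 7 (Dclk1 and Avil) of the other 9 members.

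Relative to Dclk1 in the same library, the mean log2 ratio of each other member was lower on HFD at 22 weeks. Sh2d6 and Bmx were the members called. This comparison was chosen after the data were seen. At 22 weeks the ratio of Sh2d6 to Dclk1 in CPM was 1.32, 1.62 and 2.89 (lowest, median and highest of 11) on RFD and 0.861, 1.11 and 1.61 (of 12) on HFD. All 12 HFD mice lay below the RFD median and 11 below every RFD mouse. The log2 difference was -0.67 (SE 0.13, linear model with each gene's own variance, adjusted p = 0.0393 over 14019 genes), in a comparison where 0.214% of genes were called and 0.185% were called lower. The ratio of Bmx to Dclk1 was 0.207, 0.246 and 0.310 on RFD and 0.129, 0.177 and 0.259 on HFD. Of the HFD mice 11 of 12 lay below the RFD median and 9 below every RFD mouse, and the log2 difference was -0.47 (SE 0.10, linear model, adjusted p = 0.0785). Within series a, b and c the differences were -0.66, -0.69 and -0.61 for Sh2d6 and -0.47, -0.55 and -0.45 for Bmx. The tuft cell genes Alox5ap (-0.65), Matk (-0.71) and Vav1 (-0.55) and the microvillus gene Espn (-0.62) were called lower as well. They were among 26 genes called lower of 30 called, and the median of all genes was 0.16. The lower ratio was thus not particular to Sh2d6 and Bmx.

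These ratio calls depend on the model and on the scale. A limma fit with variance shared across genes was run first and called no member (adjusted p = 0.998 for both), although the differences are the same. With a simulated log2 shift of -1 in 200 genes that follow Dclk1, that fit recovered 0 and the own-variance model 195. With 200 genes taken as they are, the fits recovered 0 and 1. The lack of calls in the shared-variance fit therefore cannot decide whether the ratios differ. Nor does the simulation show that the own-variance calls are right. Its genes that follow Dclk1 were built with a small scatter and a shift larger than the differences above, a setting that favours that model. Diet means were removed from all other genes, so false calls could not appear. On the log2(TPM + 1) scale the differences were -0.42 for Sh2d6 and -0.23 for Bmx (adjusted p = 0.744 for both). When the series entered the model as a batch, Sh2d6 was called (adjusted p = 0.0381) and Bmx was not (adjusted p = 0.120).

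Of the other members at 22 weeks, Lrmp relative to Dclk1 differed by -0.41 (SE 0.10, linear model, adjusted p = 0.197) and Krt18 by -0.53 (SE 0.19, adjusted p = 0.833). At 9 weeks no member was called, beside 0% of all genes. Avil differed by -0.36 (SE 0.11) and Sh2d6 by -0.50 (SE 0.17), each with an adjusted p of 0.180, and the Sh2d6 ratio at 9 weeks was 1.57 in the median on RFD and 1.01 on HFD, with all 11 HFD mice below the RFD median. At 9 weeks the Sh2d6 difference was -1.0, 0.20 and -0.57 in series a, b and c, so it did not have the same direction in each. When the mean of 29 other tuft cell genes was the denominator in place of Dclk1, no member was called at either time, beside 0% and 0.128% of all genes. Sh2d6 then differed by -0.48 at 9 weeks (linear model, adjusted p = 0.125) and -0.41 at 22 weeks (adjusted p = 0.526), and Dclk1 itself by 0.26 at 22 weeks (adjusted p = 0.544), a value that was -0.01 on the log2(TPM + 1) scale (adjusted p = 0.988).

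**Figure D5:**
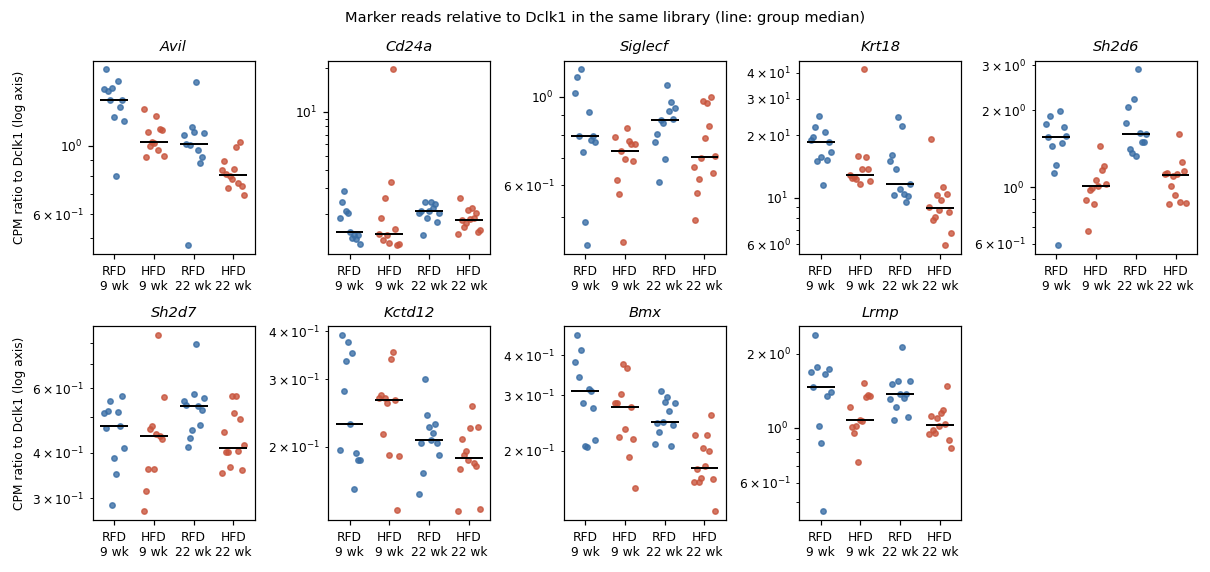
Ratio of each member to Dclk1 in the same library, in CPM on a log axis, with 1 point per mouse and a line at the group median. At 22 weeks 11 of 12 HFD mice lie below every RFD mouse for Sh2d6 and 9 of 12 for Bmx, while the groups overlap more for the other members.

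Of 30 other tuft cell genes, 29 were tested and none was called at 9 or 22 weeks, with a median log2 fold change of -0.90 and -0.44 and 26 of 29 below 0 at each time. At an unadjusted p under 0.05 there were 10 and 7 of the 29, beside 18% and 10.3% of all genes. DESeq2 called 5 lower at 9 weeks (Alox5, Hpgds, Itpr3, Pou2f3 and Vav1), beside 18.5% of the genes to which it gave an adjusted p. It called none of the 29 at 22 weeks. The rank-sum test called Itpr3 and Pou2f3 at 9 weeks, beside 10.7% of all genes. Il25 was at -1.44 (SE 0.61) at 9 weeks and -1.11 (SE 0.46) at 22 weeks, and Pou2f3 at -1.19 (SE 0.50) and -0.57 (SE 0.35), all with an edgeR adjusted p of 0.203 or above. Nrep, one of the genes above 0, was at 0.50 (SE 0.53) at 9 weeks and 2.41 (SE 0.82, edgeR, p = 0.00639, adjusted p = 0.254) at 22 weeks. Serpini1 was at 0.12 and 0.11, Gnat3 at 0.01 at 9 weeks, and Gng13 at 0.31 at 22 weeks.

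Among 4 other keratins edgeR called none. Krt8, the partner of Krt18, had log2 fold changes of -0.54 (SE 0.30, edgeR, adjusted p = 0.352) and -0.35 (SE 0.22, adjusted p = 0.605) at 9 and 22 weeks. Krt19, a type I keratin of many epithelial cells, was at 0.88 (SE 0.33, edgeR, adjusted p = 0.158) and 1.18 (SE 0.44, adjusted p = 0.330), and DESeq2 and the rank-sum test called it higher at 9 weeks. Among 10 villin, gelsolin and microvillus genes edgeR called none either. Vil1, which encodes villin, was at -0.58 (SE 0.25, edgeR, adjusted p = 0.214) and -0.15 (SE 0.17, adjusted p = 0.813), and Espn at -1.08 (SE 0.49, adjusted p = 0.242) and -0.73 (SE 0.30, adjusted p = 0.396). DESeq2 called both lower at 9 weeks, beside 18.5% of the genes to which it gave an adjusted p. The rank-sum test, which called Krt19, called 10.7% of all genes at 9 weeks.

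In the group around Kctd12, which held the GABA B receptor subunits and related KCTD genes, 1 of 5 genes was read deeply enough to be tested, and it was called. Gabbr1, the ligand-binding GABA B subunit, was at 5.79, 12.3 and 32.3 CPM on RFD and 1.24, 4.82 and 10.0 CPM on HFD at 22 weeks (lowest, median and highest). It was lower on HFD by a log2 fold change of -1.59 (SE 0.37, edgeR, adjusted p = 0.0406, called by DESeq2 and the rank-sum test as well, but not by limma on log2(TPM + 1)), with a median of 25 reads on RFD and 7.5 on HFD. At 9 weeks the value was -1.51 (SE 0.70, edgeR, adjusted p = 0.256). Gabbr2, the other subunit of the receptor, had at most 6 reads in any library.

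Around Lrmp, Itpr2 and Itpr3, the inositol trisphosphate receptors of the tuft cell cascade, were at -1.18 (SE 0.47, edgeR, adjusted p = 0.185) and -0.70 (SE 0.24, adjusted p = 0.129) at 9 weeks and at -0.46 and -0.48 at 22 weeks, with none of 3 tested genes called by edgeR. DESeq2 called both lower at 9 weeks, beside 18.5% of the genes to which it gave an adjusted p. The rank-sum test called Itpr3, beside 10.7% of all genes. The doublecortin family had 1 of 3 genes tested, the Tec kinases 2 of 4, the SH2 adaptors 3 of 8 and the Siglec family 4 of 6, with none called in any of them by edgeR, DESeq2 or the rank-sum test. The related kinase Dclk2 had at most 27 reads in a library, where Dclk1 had at least 30, and the kinase Tec had at most 84 reads. The most read of the other adaptors, Sh2d4a, had log2 fold changes of 0.78 (SE 0.44) and 1.11 (SE 0.55) at 9 and 22 weeks, and Cd33 of the Siglec family had at most 78 reads in a library.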

How the data were processed

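RNA of sorted tuft cells was sequenced in paired-end mode, 1 mouse per library. Per the labels and the submitters' processing notes, the authors trimmed reads with cutadapt 1.15, aligned them with STAR 2.6.0 to GRCm38 and obtained gene-level expected counts with RSEM (version not given in the sources used here), and deposited expected count and TPM tables per set, the TPM being scaled for gene length by the authors. FPKM tables were not used here, and 12 columns of each table could not be matched to a sample and were not used.

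Expected counts (8.79% not whole) were rounded. Genes with more than 5 reads in at least 6 of 45 libraries were kept (14020 of 36172 with reads). Symbols came from GENCODE M21 annotation, with 27 duplicate symbols removed. Each set was fitted alone for diet, and both together for the interaction, with edgeR 4.0.16 (TMM, robust quasi-likelihood test, R 4.3.3), called at an adjusted p under 0.1 (Benjamini-Hochberg over all genes tested). edgeR was run first at its default settings, and the robust setting was then chosen because it gives the gene counts of an earlier description of these data, and no member was called by diet in either. The edgeR and rank-sum fits of diet were tested on simulated counts drawn for each gene independently. The members move together, so this does not test the fits for such genes. The simulation of the ratio fits is given with the ratios.

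Levels are CPM with TMM over the 45 libraries. The correlations used log2 CPM with a prior count of 2, group means removed, and 100000 permutations. Ratios to Dclk1 were tested with limma 3.58.1 first and then with a linear model with each gene's own variance, both chosen after the data were seen. Alternatives used DESeq2 1.42.0, limma on log2(TPM + 1) or log2(TPM + 0.1), and a rank-sum test.

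The members and lists were chosen with earlier results of these data known. Beyond the members, the text names in each list the genes that passed a test or else the most read one, up to 5 other tuft cell genes with the smallest p, the 5 genes nearest to Dclk1 and the 10 nearest to the mean of the members, of which 1 is not reported here, and exceptions are marked or given for contrast. P-values measure the spread between mice, each taken as independent. Per the study's methods the mice shared cages and were killed cage by cage over several days. The labels do not give the cage or day of a library, so the tests took no account of either. Low library totals (189340 and 409023 counts in RFD mouse 40 and HFD mouse 50 at 9 weeks) give few reads for the low members, and counting error is smallest for Krt18, with at least 960 reads in every library.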

Additional observations from a re-analysis of the deposited data

How the results depend on the processing

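The members' call at 9 weeks changed from 0 to 3 with DESeq2, to 3 with the enterocyte markers as a covariate, to 1 with no filter on low counts and to 1 with the rank-sum test. The direction below 0 at 9 weeks held for all 10 members under every alternative run, and no alternative called a member at 22 weeks or in the interaction. The number of genes called at 9 weeks, 466 as reported, was 1534 with DESeq2, 1606 with bias-adjusted deviances in edgeR, 1429 with the enterocyte covariate, 1505 with no filter, 1494 with the rank-sum test, 290 without the low totals (RFD mouse 40 and HFD mouse 50), 141 without libraries over 10% Paneth reads, 17 with the Paneth covariate, and 9 and 5 with limma on log2(TPM + 1) and log2(TPM + 0.1). At 22 weeks, 111 as reported, it was 351, 226, 429 and 371 with DESeq2, bias-adjusted deviances, no filter and the rank-sum test, 185 with the series as a batch term, 67 without libraries over 10% Paneth reads, and 51 and 31 with limma. In the interaction, 0 as reported, it was 1 at the default settings of edgeR, 4 with bias-adjusted deviances and 65 with no filter. The last alternatives on Paneth markers, bias adjustment and default settings were added after seeing the data, and the cause of the shifts was not tested.

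Dclk1 at 22 weeks, 0.00 as reported, was -0.0168 with the enterocyte covariate, -0.0674 with the rank-sum test and -0.3908 and -0.3927 with limma. On the log2(TPM + 1) scale the log2 ratio to Dclk1 turned above 0 at 9 weeks for Siglecf (0.001), Sh2d7 (0.1649), Kctd12 (0.3248) and Bmx (0.0718), and at 22 weeks for Cd24a (0.1132), Siglecf (0.0512), Sh2d7 (0.0024) and Kctd12 (0.1374). At 9 weeks it was also above 0 for Sh2d7 with the series as a batch term (0.005) and for Kctd12 without the low totals (0.007). None of these ratios was called.

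Mouse numbers are shared between the sets, not between diets of a set. In 16 same-numbered pairs across sets the deviations correlated between -0.38 and 0.38 (median -0.16, 2 pairs over 0.1). Such values cannot show whether a number links 2 mice. Per the study's methods tissue was taken when a mouse was killed, so no mouse can be in both sets. A replicate block on the mouse number called 0 genes in the interaction. No paired analysis was possible because within a set no mouse number is shared by both diets.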
